A study of Mus musculus with 9 samples.

Results

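Cytosolic ribosomal proteins were examined as the genes whose symbol begins with Rpl or Rps and a digit, together with Rpsa, Rplp0, Rplp1 and Rplp2. Kinases named Rps6k (10 symbols), Rps19bp1 and pseudogenes named with -ps (7 symbols) were left out. This naming rule used no measured value and took 87 of the 24312 genes in the expression table. The gene family itself was chosen with earlier results of these data known. Of these, 77 were core ribosomal proteins, 46 of the large subunit and 31 of the small subunit, and 10 were variant copies such as Rpl22l1 and Rps27rt. Expression had been measured by RNA-seq in liver macrophages, sorted by flow cytometry as lineage-negative CD11b+ Ly6C-low F4/80+ cells. All mice were wild type, and per the study's methods C57BL/6J males aged 6 to 12 weeks when the diet began. They were fed CDA-HFD for 7 weeks or for 10 weeks, against a normal diet (ND), with 3 libraries in each of the 3 groups. CDA-HFD is a fat-rich diet that lacks choline, is low in methionine and supplies single amino acids instead of protein. The sort gate does not separate resident Kupffer cells from macrophages that descend from monocytes. By flow cytometry, the study found that macrophages from monocytes took the place of most resident Kupffer cells in CDA-HFD livers. The ND and CDA-HFD libraries are thus likely to differ in cell make-up as well as in diet, and a difference between them need not be a change within one cell population.

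Ribosomal proteins join ribosomal RNA to form the large and the small subunit of the ribosome. The subunits are put together mainly in the nucleolus, and a ribosome needs its core proteins in fixed proportion. The mRNAs of nearly all of these proteins begin with a 5′ terminal oligopyrimidine (TOP) tract, a run of C and T in the DNA, through which mTOR signalling adjusts their translation. Ribosomal protein genes are also known for large numbers of processed pseudogenes, copies of the mRNA inserted elsewhere in the genome, so short reads from them often fit several places.

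Values were FPKM, which scale reads to gene length and library size. Depth was estimated at between 5419481 and 6134938 reads per library. A gene was tested where at least 3 libraries reached 1 FPKM, which left 11783 genes and 86 members. The one member left out, Rpl10l, was listed at 0 in all 9 libraries. limma was run on log2(FPKM + 1) and a gene was called where the Benjamini-Hochberg adjusted p over all tested genes was below 0.05. The first principal component separated the CDA-HFD libraries from the ND libraries and held 64.7% of the variance, and no library stood apart from its group on it. On the second component, with 6.71% of the variance, CDA-HFD 10w replicate 3 lay at 37.5, above its group mates at 0.37 and 10.2 and all other libraries. Without it, 74 members were called higher and 1 lower for CDA-HFD against ND, and 64 and 1 for 10 weeks against ND. P-values measure the spread between 3 libraries per group, which the labels name biological replicates.

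Ribosomal protein mRNAs were higher in CDA-HFD macrophages across both subunits, and the differences were small. In the comparison of all CDA-HFD libraries with ND, 75 of 86 members rose, 1 fell and 10 were not called by limma. Over all tested genes, 22.8% were called higher and 24.3% lower. Among tested genes at or above 37.9 FPKM, the level of the 10th percentile of members, 36.0% were called higher. The median log2 fold change of the members was 0.30, a 1.23-fold difference, beside -0.03 over all tested genes. All 31 core genes of the small subunit rose, with a median of 0.34. Among them is Rps27, whose call was lost in 8 of the 9 fits that leave out 1 library. Of the 46 core genes of the large subunit, 40 rose and 6 were not called, with a median of 0.30. At 7 weeks against ND, 29 of the 31 and 42 of the 46 rose, and at 10 weeks 30 and 37 did. A difference between the subunits was not tested. In bulk RNA of sorted cells, more cells of a type with high ribosomal protein mRNA and more such mRNA per cell cannot be told apart.

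The members together took 2.66%, 2.58% and 2.58% of the summed FPKM in the 3 libraries of 7 weeks of CDA-HFD. The share was 2.52%, 2.47% and 2.52% in the 10-week libraries, against 2.08%, 2.10% and 2.12% in ND libraries. The groups did not overlap, and the CDA-HFD share was 1.22 times the ND share, as a description with no test. Without the 5 highest members the ratio was also 1.22. In 72 of the 86 members every CDA-HFD library lay above every ND library, where 19.3% of all tested genes did, and in 1 member every CDA-HFD library lay below, where 21.3% of all tested genes did.

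**Figure D1:**
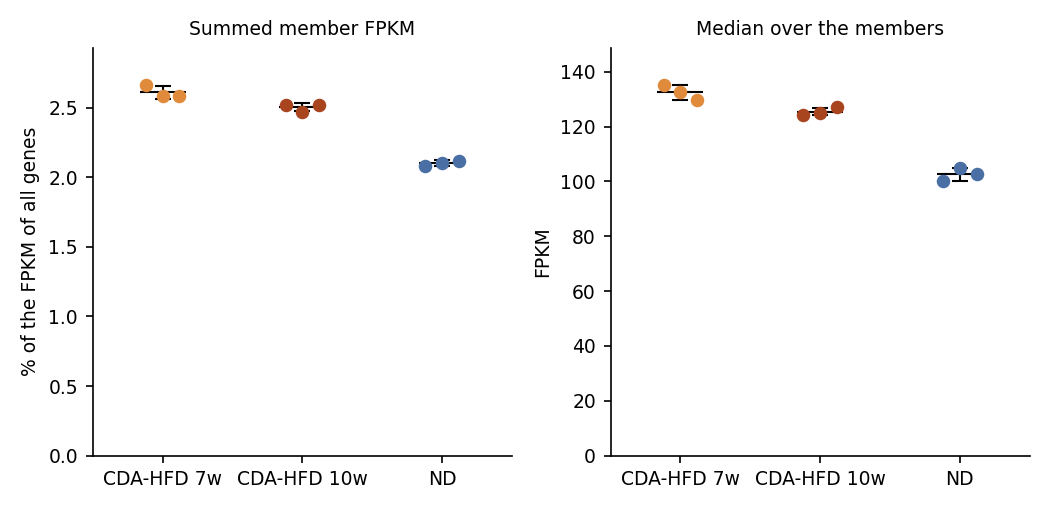
Share of the FPKM sum taken by the 87 members (left, in %) and their median FPKM (right) in each library, with points for libraries, bars for group means and whiskers for 1 SD (n = 3). The CDA-HFD libraries sit between 2.47% and 2.66% and the ND libraries between 2.08% and 2.12%.

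The most abundant member by FPKM was Rpl32, a large subunit protein. Rpl32 stood at 374, 359 and 363 FPKM after 7 weeks and 337, 344 and 338 FPKM after 10 weeks of CDA-HFD, against 289, 298 and 295 FPKM in ND. No CDA-HFD library overlapped an ND library, and the log2 fold change was 0.26 ± 0.02 (SE, limma adjusted p = 5.9e-07). Rpl32 was also the member closest to the ceiling that removal of duplicate reads sets, at 1 read per start position and strand. Reads were estimated to fill a mean of 73.1% of its start positions at 7 weeks and 73.1% at 10 weeks, against 58.6% in ND. The estimated median over members was 30.6%, 30.8% and 23.3% in the same order. Values near that ceiling understate differences, and a correction for it raised the median log2 fold change of the members to 0.39.

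The next single entries by mean FPKM of the 9 libraries were Rpl38, Rplp1, Rplp2 and Rps14. Rps27 and its copy Rps27rt, described below, were ranked apart. Their sum averaged 332 FPKM at 7 weeks, 317 FPKM at 10 weeks and 280 FPKM in ND, above Rpl38 in each group. Rpl38, which in mice is known to affect translation of Hox mRNAs, stood at 306, 312 and 311 FPKM at 7 weeks and 275, 268 and 287 FPKM at 10 weeks, against 223, 244 and 241 FPKM in ND. It rose by a log2 fold change of 0.31 ± 0.03 (SE, limma adjusted p = 6.1e-06), with no overlap. Rps14, a small subunit protein whose single-copy loss underlies the anaemia of the human 5q- syndrome, averaged 273 ± 6.0 FPKM at 7 weeks and 256 ± 5.2 FPKM at 10 weeks, against 226 ± 10.1 FPKM in ND (SD, n = 3 each). Its log2 fold change of 0.23 ± 0.03 (SE) was called, with a limma adjusted p of 4.9e-05.

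The stalk of the large subunit, made of Rplp0, Rplp1, Rplp2 and Rpl12, recruits elongation factors, and Rpl5 and Rpl11 form a particle with 5S ribosomal RNA that can also bind Mdm2. All 6 genes rose with CDA-HFD. Rpl12 had the largest difference of the 6, with 167, 162 and 168 FPKM at 7 weeks and 154, 154 and 161 FPKM at 10 weeks, against 116, 109.6 and 106 FPKM in ND. Its log2 fold change was 0.54 ± 0.04 (SE, limma adjusted p = 1.9e-07), and the groups were far apart. Rplp0, often used as a reference gene in qPCR, had the smallest called rise of any member. It stood at 186, 179 and 176 FPKM at 7 weeks and 164, 169 and 165 FPKM at 10 weeks, against 154, 164 and 162 FPKM in ND, so that one 10-week library lay below one ND library. Rplp0 changed by 0.11 ± 0.03 (log2, SE, limma adjusted p = 0.012), and without ND replicate 1 the adjusted p was 0.075.

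Between these, Rplp1 averaged 281 ± 3.1 FPKM at 7 weeks and 255 ± 5.5 FPKM at 10 weeks, against 237 ± 11.3 FPKM in ND (SD, n = 3 each), with a log2 fold change of 0.18. Rplp2 averaged 274 ± 4.6 FPKM at 7 weeks and 260.0 ± 2.2 FPKM at 10 weeks, against 222 ± 5.2 FPKM in ND, with a log2 fold change of 0.27. Rpl5 and Rpl11 differed by 0.36 and 0.23 on the log2 scale.

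Among small subunit genes, Rps12, Rps2 and Rps24 had the largest called rises after Rps27. Rps12 stood at 113, 104 and 109 FPKM at 7 weeks and 109.8, 96.9 and 109 FPKM at 10 weeks, against 72.7, 65.7 and 67.8 FPKM in ND. The log2 fold change was 0.63 ± 0.06 (SE, limma adjusted p = 2.0e-06), with a wide gap between diets. Stretches of 75 bases in the Rps12 transcript also occur in 24 other genes, and 82.5% of its stretches are shared. The part of read assignment in its values was not tested. Rps24, a gene mutated in some human patients with Diamond-Blackfan anaemia, averaged 85.99 ± 9.9 FPKM at 7 weeks and 89.1 ± 4.3 FPKM at 10 weeks, against 57.5 ± 6.8 FPKM in ND (SD, n = 3 each). Its log2 fold change was 0.60 ± 0.08 (SE, limma adjusted p = 9.0e-05).

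Rps2, which lines the mRNA entry path of the ribosome, was more scattered. It stood at 51.7, 36.3 and 44.6 FPKM at 7 weeks and 43.5, 36.7 and 67.5 FPKM at 10 weeks, against 28.4, 30.1 and 30.1 FPKM in ND. All CDA-HFD libraries lay above ND, and the spread within CDA-HFD was wider than within ND (log2 fold change 0.61 ± 0.17, SE, limma adjusted p = 0.0095). The highest value was that of CDA-HFD 10w replicate 3, and without this library the log2 fold change was 0.49 (adjusted p = 0.0053). Stretches of 75 bases found in the Rps2 transcript also occur in 50 other genes, and 71.1% of its stretches are shared, so its value depends on how such reads were assigned.

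Rps6, the substrate of S6 kinases downstream of mTOR, stood at 63.2, 63.0 and 60.8 FPKM at 7 weeks and 65.1, 59.4 and 60.5 FPKM at 10 weeks, against 43.9, 45.8 and 48.3 FPKM in ND. The diets did not overlap and the log2 fold change was 0.42 ± 0.06 (SE, limma adjusted p = 0.00014). Of the 75-base stretches of Rps6, 84.1% are shared, with 11 other genes. Rpsa, also known as the laminin receptor precursor, stood at 58.7, 53.6 and 48.5 FPKM at 7 weeks and 41.6, 41.7 and 48.2 FPKM at 10 weeks, against 34.1, 34.6 and 32.5 FPKM in ND. Rpsa rose by 0.51 ± 0.09 on the log2 scale (SE, limma adjusted p = 0.00042), and 39.7% of its stretches are shared, with 20 other genes. Its 10-week libraries all lay below its 7-week libraries, but the difference between the times was not called (log2 difference -0.28, adjusted p = 0.20).

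In the large subunit, Rpl27a stood at 89.5, 86.2 and 82.0 FPKM at 7 weeks and 83.3, 75.1 and 80.3 FPKM at 10 weeks, against 62.2, 56.0 and 51.2 FPKM in ND. It rose by 0.54 ± 0.07 on the log2 scale (SE, limma adjusted p = 3.3e-05), again with no overlap. The 6 core genes not called were Rpl15, Rpl17, Rpl21, Rpl26, Rpl29 and Rpl41, all of the large subunit. They were named because there were only 6, after their values had been seen. Rpl41, the smallest ribosomal protein, averaged 92.6 ± 4.5 FPKM at 7 weeks and 88.1 ± 2.8 FPKM at 10 weeks, against 83.0 ± 4.4 FPKM in ND (SD, n = 3 each), and its limma adjusted p was 0.071. Rpl26, which in human cells can bind p53 mRNA, was erratic within groups, at 53.8, 9.62 and 53.8 FPKM at 7 weeks and 38.7, 54.1 and 52.6 FPKM at 10 weeks, against 51.4, 30.02 and 8.72 FPKM in ND.

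**Figure D2:**
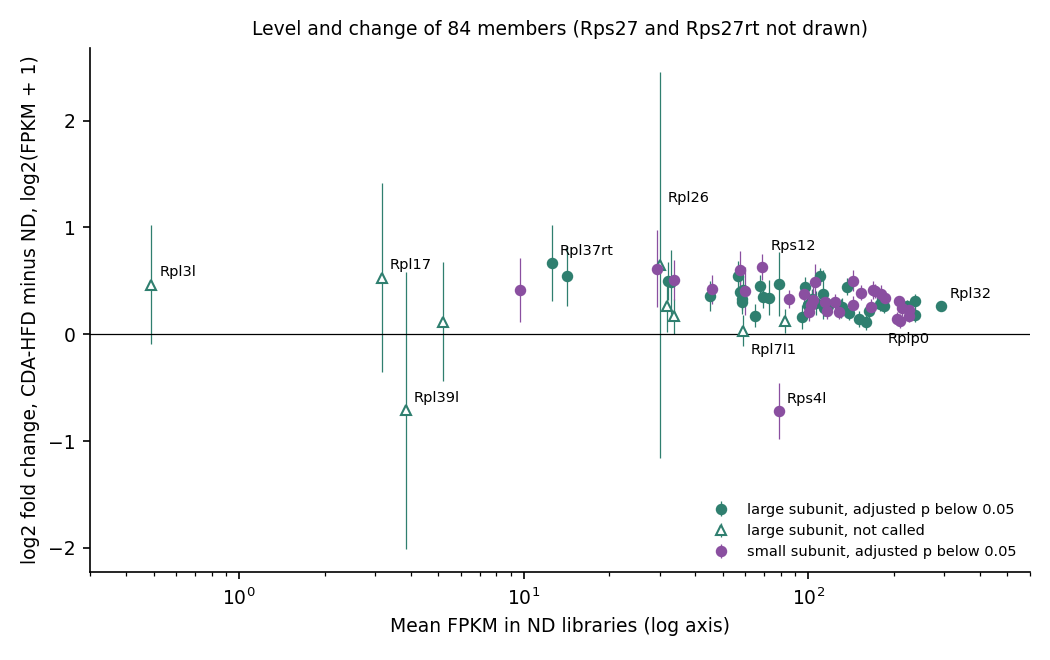
Mean FPKM in ND libraries (log axis) against the log2 fold change of CDA-HFD minus ND on log2(FPKM + 1), for 84 tested members, with 95% limma intervals, circles for called genes and open triangles for others. Most members from 50 FPKM upward lie between 0.1 and 0.7, and Rps4l at -0.72 is the one called fall.

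Across 76 core members without Rps27, the log2 fold change had a Spearman rho of -0.40 with the mean FPKM of the 9 libraries and of -0.44 with the mean estimated filling of start positions. With transcript length rho was -0.06, and with the share of 75-base stretches found elsewhere it was 0.23. The members share the same 9 libraries, and level and fold change come from the same values, so these are descriptions. Of the 87 members, 83 had some 75-base stretch in common with a gene elsewhere in GRCm38, the median share was 42.2%, and 33 members shared over 50%. The 11 core members that shared under 10% all rose, with a median log2 fold change of 0.31. The share depends on the transcript used for each gene. Rps20 and Rps15a were among the 11 with transcripts of 3706 and 5179 bases. They still had 238 stretches in common with Gm4332 and 150 with Rps15a-ps7, so the 11 are not all free of shared reads. Rps3, also among the 11, lines the mRNA entry path and had no shared stretch. Rps3 stood at 122, 117 and 120.5 FPKM at 7 weeks and 108, 115 and 113 FPKM at 10 weeks, against 99.5, 101.4 and 99.8 FPKM in ND (log2 fold change 0.21 ± 0.04, SE, limma adjusted p = 0.00065), with no overlap between the diets.

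Level differed with the number of genes that share stretches. The 7 core members that share stretches with at least 20 genes had a median of 36.6 FPKM over the 9 libraries and ranged from 3.72 to 94.2 FPKM, while the other 70 had a median of 132.9 FPKM. Across core members, the Spearman rho of mean FPKM was -0.58 with the number of sharing genes and -0.22 with the share of stretches found elsewhere. Low values of Rpl17, Rpl21 and Rpl7a, which are core proteins of every ribosome, were not read as low expression. The part of read assignment in these values was not tested. Rpl17 averaged 4.04 FPKM at 7 weeks and 3.94 FPKM at 10 weeks, against 3.17 FPKM in ND. Rpl21 shares stretches with 61 other genes and averaged 6.41 FPKM at 7 weeks and 5.10 FPKM at 10 weeks, against 5.19 FPKM in ND.

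Rps27 and its copy Rps27rt had high and low values that changed places between libraries, and their sequences are given because a read from the coding sequence fits both genes. The part of read assignment in their values was not tested. Rps27 (chr3:90212728-90213615, minus strand, GRCm38) has introns, while the coding sequence of Rps27rt (chr9:114982456-114982707, minus strand) is 1 continuous block. The coding sequences are 252 bases long and 100% identical. The coding sequence of both is shown first, followed by that of Rps27l (chr9:66946175-66949354, plus strand), a paralog whose 60 differing bases are in capitals. Rps27l is 76.2% identical, and its longest run without a difference is 11 bases, shorter than a read of 75 bases.
Rps27 and Rps27rt: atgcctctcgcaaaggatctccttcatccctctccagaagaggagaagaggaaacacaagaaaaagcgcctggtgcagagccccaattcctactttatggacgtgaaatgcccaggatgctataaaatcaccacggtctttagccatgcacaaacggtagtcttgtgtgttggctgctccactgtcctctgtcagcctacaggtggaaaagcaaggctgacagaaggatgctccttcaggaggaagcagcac
Rps27l: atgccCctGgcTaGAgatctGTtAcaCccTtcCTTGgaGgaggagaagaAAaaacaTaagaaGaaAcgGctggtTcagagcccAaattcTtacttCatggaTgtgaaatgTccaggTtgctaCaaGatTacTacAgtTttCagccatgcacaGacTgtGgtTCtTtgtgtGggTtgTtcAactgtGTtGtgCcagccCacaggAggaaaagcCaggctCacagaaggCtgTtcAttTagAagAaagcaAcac

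Rps27 stood at 339, 329 and 307 FPKM at 7 weeks and 309, 299 and 307 FPKM at 10 weeks, against 254, 14.7 and 17.0 FPKM in ND. Rps27rt stood at 0.63, 0.53 and 21.5 FPKM at 7 weeks and 0.56, 20.5 and 15.6 FPKM at 10 weeks, against 15.5, 269 and 271 FPKM in ND. The high entry was thus Rps27 in all 6 CDA-HFD libraries and in ND replicate 1, and Rps27rt in ND replicates 2 and 3. Taken singly, Rps27 had the largest called rise of all members (log2 fold change 2.92 ± 0.91, SE, limma adjusted p = 0.040) and Rps27rt a log2 fold change of -4.25 that was not called (adjusted p = 0.065). The call of Rps27 was lost when ND replicate 2 was left out (log2 fold change 2.22, adjusted p = 0.14) and when ND replicate 3 was left out (2.32, adjusted p = 0.14). It was lost in 8 of the 9 fits that leave out 1 library. The exception, without ND replicate 1, gave a log2 fold change of 4.23.

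The sum of the pair was steady within groups. It came to 340.0, 329 and 328 FPKM at 7 weeks and 309, 319 and 322 FPKM at 10 weeks, against 269, 284 and 288 FPKM in ND. The diets did not overlap, and in a fit with the pair as 1 gene the sum rose by 0.21 ± 0.03 on the log2 scale (SE, limma adjusted p = 3.1e-05), below the members' median of 0.30. With the pair summed, 75 of 85 members rose and 1 fell. The paralog Rps27l, induced by p53 in human and mouse cells, stood at 281, 259 and 250.4 FPKM at 7 weeks and 234, 242 and 252 FPKM at 10 weeks, against 218, 209 and 211 FPKM in ND. It rose by 0.25 ± 0.04 on the log2 scale (SE, limma adjusted p = 0.00013).

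**Figure D3:**
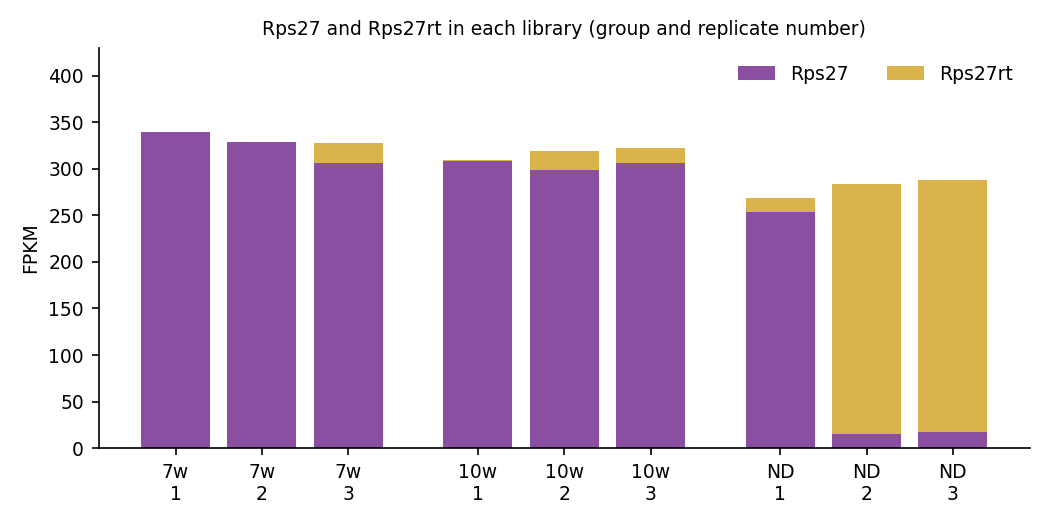
FPKM of Rps27 (purple) and Rps27rt (yellow), stacked, in each of the 9 libraries, labelled by group and replicate number. The height of the stack lies between 309 and 340.0 FPKM in CDA-HFD libraries and between 269 and 288 FPKM in ND libraries, while the colour of the tall part differs only in ND replicates 2 and 3.

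The other variant copies moved in different ways. Of the 9 tested, 4 rose, 1 fell and 4 were not called, with a median log2 fold change of 0.16, and Rps27rt is among those not called. Rps4l was the only member that fell. It is a copy of the X-linked gene Rps4x on chromosome 6 (chr6:148354656-148355598, plus strand, GRCm38), annotated in GENCODE as a transcribed processed pseudogene, and shares 6.67% of its stretches elsewhere. It stood at 60.1, 38.9 and 41.0 FPKM at 7 weeks and 52.2, 46.5 and 48.1 FPKM at 10 weeks, against 72.7, 85.6 and 77.4 FPKM in ND. No library of one diet overlapped the other (log2 fold change -0.72 ± 0.12, SE, limma adjusted p = 0.00035). Rps4x itself averaged 152 ± 1.8 FPKM at 7 weeks and 144 ± 3.1 FPKM at 10 weeks, against 128 ± 2.9 FPKM in ND (SD, n = 3 each), a log2 fold change of 0.21.

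Rpl37rt, the second member annotated as a transcribed processed pseudogene, rose by 0.67 ± 0.16 on the log2 scale (SE, limma adjusted p = 0.0051). It averaged 21.2 ± 1.03 FPKM at 7 weeks and 18.8 ± 1.4 FPKM at 10 weeks, against 12.5 ± 3.9 FPKM in ND (SD, n = 3 each), where 1 library reached 16.9 FPKM. It shares 64.4% of its stretches with other genes, Rpl37 foremost, and Rpl37 rose by 0.30. Rpl22l1, a paralog that binds RNA like Rpl22, averaged 147 ± 3.3 FPKM at 7 weeks and 132 ± 6.9 FPKM at 10 weeks, against 115 ± 7.5 FPKM in ND (SD, n = 3 each), and rose by 0.28 (limma adjusted p = 0.00041). Rpl22 itself had lower FPKM and rose by 0.50, with means of 44.8 FPKM at 7 weeks and 46.5 FPKM at 10 weeks, against 32.03 FPKM in ND. Rpl36al rose by 0.16 ± 0.05 (SE, limma adjusted p = 0.022), and with ND replicate 1 or 2 left out its adjusted p was 0.093 or 0.11.

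Rpl7l1, a nucleolar relative of Rpl7, did not move with the rest. It stood at 57.4, 53.3 and 53.7 FPKM at 7 weeks and 60.5, 65.6 and 72.5 FPKM at 10 weeks, against 59.3, 59.4 and 57.7 FPKM in ND. The 7-week libraries were below all ND libraries and the 10-week libraries above them, and none of the limma contrasts was called (10 weeks minus 7 weeks, log2 difference 0.27 ± 0.08, SE, adjusted p = 0.14). Rpl3l, known from heart and skeletal muscle, stood between 0.22 and 1.22 FPKM in all libraries. Rpl39l, known from testis, averaged 4.11 FPKM at 7 weeks and 1.098 FPKM at 10 weeks, against 3.85 FPKM in ND. One 7-week library had it at 0. Neither was called, and with Rpl10l, also known from testis, they were the members nearest to 0.

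Each time on CDA-HFD was also set against ND, with the same 3 ND libraries in both comparisons. At 7 weeks 75 members rose and 1 fell, where 21.3% of tested genes were called higher and 22.4% lower, and the median log2 fold change was 0.35. At 10 weeks 70 rose and 1 fell, where 19.3% were called higher and 20.6% lower, and the median was 0.26. Rplp0, Rpl9, Rpl15, Rpl29, Rpl36al and Rpl41 were among the members called at 7 weeks and not at 10 weeks, and Rps15a and Rpl30 at 10 weeks and not at 7 weeks.

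Set directly against 7 weeks, 10 weeks of CDA-HFD gave no called member, where 0.127% of tested genes were called in either direction. By limma, 27 members had an unadjusted p below 0.05, 26 of them lower at 10 weeks, where 15.5% of all tested genes, and 22.6% of those at or above 37.9 FPKM, had such a p. Without limma's trend and robust settings this count was 4. The median log2 difference was -0.08, beside -0.01 over all tested genes and -0.04 over those at or above 37.9 FPKM, and 73 of 86 members were below 0, where 51.0% of tested genes, and 61.4% of those at or above 37.9 FPKM, were. In 40 members every 10-week library lay below every 7-week library, where 10.8% of tested genes, and 18.3% of those at or above 37.9 FPKM, did. Rpl32 and Rpl38 had the smallest adjusted p, at 0.092 each, with log2 differences of -0.11 and -0.16. Under quantile normalization the median difference was -0.02 and 57 of 86 members were below 0. Differences of this size were not called with 3 libraries a group.

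**Figure D4:**
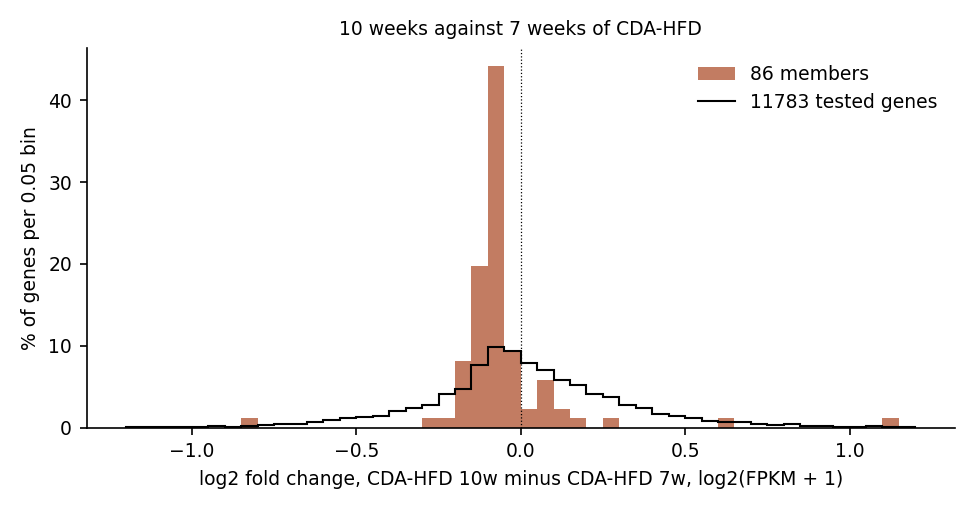
Log2 fold change of 10 weeks minus 7 weeks of CDA-HFD on log2(FPKM + 1), as the % of genes in bins of 0.05, for the 86 tested members (filled) and all 11783 tested genes (line). The members form a narrow peak just below 0, with a median of -0.08, and the line is centred near 0.

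The DNA around annotated starts was searched for the letters CTTTC, a narrower pattern than a TOP tract. Of the 87 members, 66 had a promoter entry in RefSeq (GRCm38.p6). The letters CTTTC occurred on the gene's strand within 20 bases of an annotated start in 20 of 66 (30.3%), against 6.44% of all 27025 genes with an entry. CCGGAAG, the core of ETS family and GABP sites, occurred on either strand of the 300-base window in 26 of 66 (39.4%), against 9.93% of all genes. TATAAA occurred between 45 and 16 bases before the start in 1 of 66 (1.52%), against 2.57% of all genes. Windows of 30 bases around the annotated start are printed for 6 members described above, chosen because the window holds CTTTC, which is in capitals. Of the other members described above, Rps12, Rps2, Rps24, Rps6, Rpsa, Rps3, Rplp0 and Rpl11 had no CTTTC within 20 bases of the start, and the windows of Rps12 and Rplp0 are printed last for comparison. The windows are those of Rpl12 (chr2:32961697-32961726, plus strand), Rpl27a (chr7:109519180-109519209, plus strand), Rplp2 (chr7:141447636-141447665, plus strand), Rpl38 (chr11:114668565-114668594, plus strand), Rps27 (chr3:90213634-90213663, minus strand), Rps27rt (chr9:114982725-114982754, minus strand), Rps12 (chr10:23787195-23787224, minus strand) and Rplp0 (chr5:115559452-115559481, plus strand).
Rpl12: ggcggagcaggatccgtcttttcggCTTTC
Rpl27a: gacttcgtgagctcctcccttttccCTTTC
Rplp2: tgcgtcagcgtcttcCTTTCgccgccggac
Rpl38: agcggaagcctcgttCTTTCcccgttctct
Rps27: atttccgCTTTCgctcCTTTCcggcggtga
Rps27rt: agaacttatcccttgCTTTCcggcggtgac
Rps12: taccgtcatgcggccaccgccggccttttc
Rplp0: gtcttcgggtttcgaggaccgcctggttct

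The 18 core members with CTTTC near the start had a median log2 fold change of 0.32, and the 39 with an entry and no CTTTC had a median of 0.33. A window without CTTTC can hold another run of C and T, as that of Rps12 does, so the split was not one by TOP tract. A match of letters is a description of the window and not a measured binding site or start.

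Fau and Gnb2l1, ribosome components outside the naming rule, also rose. Fau, which encodes Rps30 fused to a ubiquitin-like protein, averaged 157 FPKM at 7 weeks and 146 FPKM at 10 weeks, against 126 FPKM in ND (log2 fold change 0.26, limma adjusted p = 7.4e-05). Gnb2l1, the older symbol of Rack1, a scaffold on the small subunit, averaged 210.2 FPKM at 7 weeks and 199.6 FPKM at 10 weeks, against 176 FPKM in ND, and rose by 0.22. Rps27a, the fusion of ubiquitin and Rps27a protein and itself one of the 87, rose by 0.40 ± 0.10 (log2, SE, limma adjusted p = 0.0071). It stood at 76.7, 76.0 and 80.6 FPKM at 7 weeks and 73.9, 69.1 and 104.3 FPKM at 10 weeks, against 61.4, 58.8 and 59.3 FPKM in ND. The highest value was that of CDA-HFD 10w replicate 3, and the call was kept without this library. Of its 75-base stretches, 55.5% are shared with other genes.

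Other genes with TOP mRNAs were also mostly higher. Of 20 such genes that are not ribosomal proteins, 17 rose, none fell and 3 were not called, with a median log2 fold change of 0.31. Over all tested genes, 22.8% were called higher. Vim, an intermediate filament gene, rose by 0.94, Eif3e, an initiation factor subunit, by 0.64 and Npm1, the nucleolar chaperone nucleophosmin, by 0.58. The elongation factors Eef1a1 and Eef2 rose by only 0.12 and 0.09. Among 7 host genes of small nucleolar RNAs, which guide modification of ribosomal RNA, 5 rose, with a median of 0.87. Gas5 averaged 24.0 FPKM at 7 weeks and 24.8 FPKM at 10 weeks, against 11.6 FPKM in ND, and Snhg5 and Snhg8 rose by 1.34 and 1.21.

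Of 49 ribosome biogenesis genes, 29 rose, 2 fell and 18 were not called, with a median of 0.38. Gnl3, the nucleolar GTPase nucleostemin, rose by 1.16, Rrp1b by 0.94 and Gar1, of the H/ACA particle, by 0.87, while Ppan fell by 0.34 and Nop10 by 0.10. Of 15 tested genes of RNA polymerase I and its factors, 4 rose and 11 were not called. Taf1d rose by 0.86 and Polr1c by 0.57. Of 36 initiation factor genes, 21 rose and 2 fell, with Eif1ax at 1.00 and Eif5b at -0.47. Of 11 elongation and termination genes, 9 rose and 1, the kinase Eef2k, fell by 0.96. Of 11 ribosome quality control genes, 3 rose and 1, the kinase Eif2ak4 (GCN2), fell by 0.77. Over all tested genes, 22.8% were called higher and 24.3% lower. The shares of polymerase I and quality control genes that rose were near that of all genes.

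Mitochondrial ribosomal proteins, which belong to a separate ribosome, moved less. Of 77 tested, 34 rose, 4 fell and 39 were not called, with a median log2 fold change of 0.14. Of all tested genes 22.8%, and of those at or above 37.9 FPKM 36.0%, were called higher. Mrpl1 and Mrpl45 rose by 0.64 each, and Mrpl3 fell by 0.47.

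Genes that control TOP mRNAs and ribosomal protein synthesis were mostly not called. Of 18 tested, 1 rose, 5 fell and 12 were not called, with a median of -0.11, where 22.8% of all tested genes were called higher and 24.3% lower. The share that fell was thus near that of all genes. The one that rose was Rheb, the GTPase that activates mTORC1, by 0.29. Those that fell were Sesn2 by 1.65, Eif4ebp2 by 1.21, Tsc2 by 0.54, Akt1s1 by 0.50 and Sesn1 by 0.20. All 5 encode proteins known to restrain mTORC1 or cap-dependent translation. That is background on called genes and not a count over all such restrainers in the list. Its bearing on the members was not tested. At 10 weeks against ND, 3 of the 5 were called lower, and Tsc2 and Sesn1 were not (limma adjusted p = 0.13 and 0.55). Sesn1 averaged 59.1 FPKM at 7 weeks and 84.2 FPKM at 10 weeks, against 81.1 FPKM in ND, and was higher at 10 weeks than at 7 weeks (log2 difference 0.50, limma adjusted p = 0.017). Myc and Larp1, a transcription factor and a repressor of TOP mRNAs, were not called, at -0.04 and -0.15. Mtor and Rps6kb1 were not called either.

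**Figure D5:**
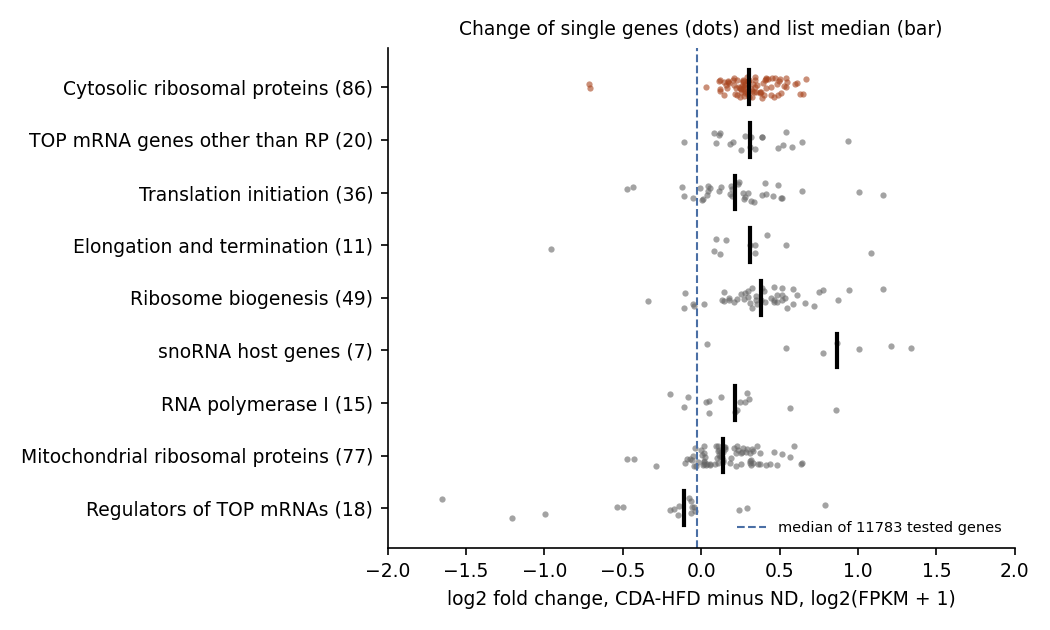
Log2 fold change of CDA-HFD minus ND on log2(FPKM + 1) for single genes (dots) of 9 gene lists, with the number tested in parentheses, bars at the list medians and a dashed line at the median of all tested genes (-0.03). The ribosomal protein median is 0.30 and that of mitochondrial ribosomal proteins 0.14, and Rps27 (2.92) and Rps27rt (-4.25) lie outside the axis.

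Cell type markers moved in the same libraries, where 22.8% of all tested genes were called higher and 24.3% lower. Of 12 Kupffer cell markers 11 fell, and their summed level was 1341 to 1609 FPKM at 7 weeks and 1290 to 1526 FPKM at 10 weeks, against 2769 to 2921 FPKM in ND. Of 11 monocyte markers 8 rose and 1 fell, and their sum was 665 to 761 FPKM at 7 weeks and 784 to 805 FPKM at 10 weeks, against 248 to 268 FPKM in ND. Of 16 hepatocyte markers 13 fell and 1 rose, and their sum was 495 to 533 FPKM at 7 weeks and 431 to 524 FPKM at 10 weeks, against 694 to 1177 FPKM in ND. Of 16 immediate early genes, which also respond to tissue dissociation, 13 rose. Of 10 general macrophage markers 1 rose and 6 fell, with a median of -0.13. Of 4 tested erythroid markers 3 fell, and the summed level of the list was 2.05 to 13.2 FPKM at 7 weeks and 0.093 to 3.41 FPKM at 10 weeks, against 42.2 to 48.3 FPKM in ND. Of 5 tested B cell markers 4 fell, and the sum of the list was 72.0 to 84.1 FPKM at 7 weeks and 81.7 to 101.2 FPKM at 10 weeks, against 94.8 to 125.2 FPKM in ND. The defining marker Pax5 was listed at 0 in all libraries. All 3 tested stellate cell markers rose, and the sum of that list was 19.2 to 25.9 FPKM at 7 weeks and 11.0 to 28.4 FPKM at 10 weeks, against 2.12 to 5.52 FPKM in ND. Of 8 sinusoidal endothelial markers 4 rose and 2 fell, and their sum was 286 to 361 FPKM at 7 weeks and 259.8 to 389.6 FPKM at 10 weeks, against 178.6 to 210.0 FPKM in ND. Of 12 proliferation genes 3 rose, near the share of all genes, and none fell. Of the tested neutrophil, dendritic cell and T and NK cell markers, 2 of 5, 1 of 5 and 1 of 7 rose, and 1 of each list fell. The part of these shifts in the ribosomal protein values was not tested.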

How the data were processed

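Total RNA was extracted from sorted cells with TRIzol LS and a Favorgen kit, cDNA was made with a SMART-Seq HT kit and libraries with Nextera XT, and single-end reads of 75 bases were sequenced on a NextSeq 500. The submitters' processing notes name Trimmomatic (0.36.0), HISAT2 (2.2.1) and featureCounts (2.0.1) with GRCm38. The methods add Picard for removal of duplicates and Cufflinks or featureCounts for counting. The values deposited by the authors were FPKM per gene symbol in 1 table. The methods name TPM, but the columns sum to between 444816 and 458788, so FPKM was assumed. How reads that fit several places were assigned is not given in the sources used here.

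Of 24776 entries 1 was incomplete and left out, and values were summed per symbol (24312 genes). Depth was estimated from steps in low values of single-transcript genes. By this measure 68.7% to 74.5% of such values came out whole to within 0.1 read, so no reads were recovered and no count model was run. limma (3.58.1, R 4.3.3) was fitted to log2(FPKM + 1) of all 9 libraries with 3 group means, trend and robust settings. Genes needed 1 FPKM in at least 3 libraries. Fold changes on this scale understate low genes. In simulated data for CDA-HFD against ND with 11783 genes, 50% of 100 planted 1.25-fold changes and 83% of 100 planted 1.5-fold changes were recovered, with 3.62% false calls. Only the planted genes differed there, while 22.8% of tested genes were called higher and 24.3% lower in the data. The simulated rates therefore do not carry over directly. Shared 75-base stretches came from GENCODE transcripts of GRCm38, 1 transcript per member.

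Most genes were named by rule. These were the 6 called members with the largest rise and the 6 with the largest fall whose CDA-HFD libraries all lay on 1 side of ND, the 5 of highest mean FPKM, the paralog and stalk lists, Rps6 and Rpsa, and up to 3 called genes per direction of each other list. Other genes were named outside this rule, with their values known. Among members these include Rps3, Rps4x, Rps15a, Rps20, Rpl7a, Rpl17, Rpl21, Rpl22 and Rpl37. In other lists they include Eef1a1, Eef2, all called falls among regulators of TOP mRNAs, and Myc, Larp1, Mtor and Rps6kb1. Members, lists and tests were chosen with earlier results of these data known. Alternatives were other pseudocounts, filters, scalings (a trimmed mean of log ratios, quantile normalization and the sum over other genes), no trend and robust settings, a replicate block, the highest entry per symbol, a correction for the duplicate ceiling and each library left out. Single values of a few genes are not reported here.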

Additional observations from a re-analysis of the deposited data

Results flagged for a closer look

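Rpl7l1 was singled out because its libraries moved in opposite directions from ND at the 2 times. All 3 libraries of 7 weeks lay below all 3 ND libraries and all 3 libraries of 10 weeks lay above them. The log2 difference of 10 weeks minus 7 weeks was 0.27 (limma adjusted p = 0.14), so the test of the difference did not pass the threshold. Groups of 3 are too small for a test of single libraries that stand apart.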

How the results depend on the processing

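The direction of the median member held under every alternative run for the 4 comparisons. The median log2 fold change of CDA-HFD against ND was 0.35 with trimmed-mean scaling, 0.28 with quantile normalization and 0.39 with the correction for the duplicate ceiling. For 7 weeks against ND it was 0.40, 0.29 and 0.42 under the same settings, 0.32 with a pseudocount of 5, and 0.32 over the 15 tested members that share under 10% of stretches. That last choice, and the summing of Rps27 and Rps27rt, were made after seeing the data. For 10 weeks against ND it was 0.29 with trimmed-mean scaling and 0.34 with the correction, and for 10 weeks against 7 weeks it was -0.017 with quantile normalization. The ratio of shares was 1.32 when the members' median FPKM was set over the library median. Without trend and robust settings, 5 calls of CDA-HFD against ND and 18 of 10 weeks against ND were lost. For CDA-HFD against ND, the members' median lay 0.33 above the median of all tested genes in the main fit. The gap was 0.34 with trimmed-mean scaling, 0.28 with quantile normalization and 0.41 with the correction. The trimmed-mean setting thus moved the median of all tested genes along with that of the members. The cause of the other shifts was not tested.

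Leaving out 1 library at a time gave 69 to 75 members called higher for CDA-HFD against ND. The range was 69 to 74 for 7 weeks against ND and 62 to 69 for 10 weeks against ND, with 1 to 2 called lower in each. Medians ranged from 0.29 to 0.31, from 0.33 to 0.36 and from 0.25 to 0.27 in that order, and from -0.10 to -0.07 for 10 weeks against 7 weeks. Rps27 kept its direction (2.22 to 4.23) but its call was lost in each but one of these 9 fits, the exception being without ND replicate 1. Rpl7l1 changed sign without CDA-HFD 10w replicate 3 (-0.0013, adjusted p = 0.99) and ranged up to 0.063 without the other libraries.

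Replicate numbers did not pair the samples, with correlations of same-numbered libraries from -0.06 to 0.09. With the numbers as a replicate block, 2 members were called lower in each of the 3 comparisons with ND, since Rps27rt passed the threshold (adjusted p = 0.018), and the call of Rps27 was lost (adjusted p = 0.061). Rps27rt was also the second member called lower for CDA-HFD against ND without a filter (2 members) and, for both CDA-HFD and 7 weeks against ND, without trend and robust settings (2 members). Of the lists, ribosome biogenesis had 1 gene called lower with trimmed-mean scaling. Depth limits the members under 10 FPKM, of which there were 4 among those tested.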

Other observations

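Pseudogene symbols that the naming rule leaves out carried signal. Of 7 such entries 6 were tested, and 3 rose with CDA-HFD while none fell, where 22.8% of all tested genes were called higher. Rpl34-ps1 averaged 128 FPKM at 7 weeks and 108 FPKM at 10 weeks, against 96.7 FPKM in ND (log2 fold change 0.28, limma adjusted p = 0.0016). Rpl14-ps1 rose by 0.31 and Rplp2-ps1 by 0.70. How much of these values came from reads of the parent genes was not tested.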
